A study of Microtus ochrogaster with 40 samples.

Results

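Hcrtr1, Hcrtr2, Npffr1 and Npffr2, the genes of the 2 orexin receptors and the 2 neuropeptide FF receptors, were followed across the nuclei of the prairie vole nucleus accumbens. They were found by symbol among the 19130 genes of the count matrices, and all 4 were listed, as ENSMOCG00000015876 (Hcrtr1), ENSMOCG00000014320 (Hcrtr2), ENSMOCG00000000219 (Npffr1) and ENSMOCG00000014063 (Npffr2). The 4 genes were chosen with their levels by class of nuclei, by Col24a1 and by animal already known. Those levels are therefore given as descriptions; tests are kept for pairing, sex and the makeup and depth of the libraries. Hcrtr2 gave 8192 unique molecular identifiers (UMIs, each standing for 1 captured RNA molecule), Npffr2 gave 2108, Npffr1 178 and Hcrtr1 148, among 178387 nuclei.

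The nuclei came from 40 prairie voles (Microtus ochrogaster), a monogamous rodent studied for its lasting pair bonds. Before the tissue was frozen each animal had spent 16 days with a partner unfamiliar at the start, either of the opposite sex (mate) or of the same sex (peer). Of the females 11 had a mate and 8 a peer, and of the males 11 had a mate and 10 a peer, each animal giving 1 library of nuclei from brain punches. No genotype, age or drug is given in the labels, and every animal was housed with a partner, so no group was unpaired. The labels do not say which animals lived together, so partners within the series may not be independent of each other.

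Orexins are peptides of lateral hypothalamic neurons whose fibres reach the accumbens, and they act in arousal and reward. The receptor encoded by Hcrtr1 prefers orexin A, while that encoded by Hcrtr2 binds orexin A and orexin B, and both couple mainly to Gq and depolarize neurons. Neuropeptide FF belongs to the RF-amide peptides and is known for modulating opioid action. Its receptor is encoded by Npffr2, while Npffr1 encodes the receptor for the related RF-amide peptides made from Npvf, and both couple to Gi/o. Medium spiny neurons, the projection neurons of the accumbens, fall into a D1 type with dopamine receptor Drd1 (listed here under its older name Drd1a) and a D2 type with Drd2. Col24a1 encodes a collagen chain and is used here only as a label of nuclei.

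The libraries held 1767 to 7666 kept nuclei each, with a median of 652 to 2140.5 UMIs per nucleus. Levels are given as UMIs of the gene per 1000000 UMIs of the same nuclei (CPM). Nuclei were grouped by clustering, and a cluster was called X-like after a list of marker genes; none of the 4 receptor genes was among the 2000 variable genes used. D1-like nuclei numbered 31814 and D2-like nuclei 30501. Drd1a stood at 936 ± 106 CPM (SD, n = 40 animals) in D1-like and 31.4 ± 11.7 CPM in D2-like nuclei, and Drd2 at 353 ± 58.8 CPM in D2-like nuclei. The punches also held tissue that is not striatal, since glutamate neuron-like nuclei made up 0.508% to 41.6% of a library, the highest in male mate 2. That library was also the shallowest, and without it the class means given below moved by far less than their SDs (Hcrtr1 in somatostatin-like nuclei from 41.5 to 42.8 CPM, Hcrtr2 in cholinergic-like nuclei from 24.4 to 25.4). The glutamate neuron-like class leaves out a cluster of 12416 nuclei led by Stmn1, ATP8 and Cck. It was nearest to the glutamate neuron list but stayed unnamed, and made up 1.20% to 38.3% of a library. Of 158482 barcode sequences, 18417 occurred in 2 or more libraries, and no pair of libraries shared more than 1.47% of the smaller library's barcodes.

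Hcrtr1 was found almost entirely in somatostatin-like nuclei, the class marked by Sst, Npy, Nos1 and Chodl. These 1340 nuclei, 0.751% of all, held 122 of its 148 UMIs (82.4%). The pooled level there was 43.1 CPM, with an exact Poisson 95% interval of 35.8 to 51.4 that covers counting error only. Over the 31 animals with at least 20 such nuclei the mean was 41.5 ± 33.2 CPM, the lowest animal stood at 0, the median at 28.4 and the highest at 128.5. A few animals were thus far above the rest, and 2 animals had no UMI in this class. The UMIs behind each animal were few, 0 to 12, so part of this spread is counting error.

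Outside that class Hcrtr1 was close to the limit of detection. Glutamate neuron-like nuclei held 14 UMIs (0.218 CPM) and the D1-like and D2-like nuclei 2 UMIs each, at 0.0293 and 0.0317 CPM. Astrocyte-like, eccentric medium spiny neuron-like, cholinergic-like and mature oligodendrocyte-like nuclei held none, which at 3 counts allows up to 0.201, 0.113, 1.18 and 0.311 CPM. A UMI was seen in 8.36% of somatostatin-like nuclei and in 0.0207% of microglia-like nuclei, which should lack the gene. The median depth was 1911 and 611 UMIs, and after thinning each nucleus to 500 UMIs the share in somatostatin-like nuclei was 2.46%, while microglia-like nuclei showed none.

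Hcrtr2 followed another pattern and was highest in medium spiny neurons. D1-like nuclei held 3982 of its UMIs (48.6%) and D2-like nuclei 2579 (31.5%). Its level in D1-like nuclei was 61.0 ± 24.5 CPM (n = 40; lowest 18.8, median 60.8, highest 134.8). In D2-like nuclei it was 41.5 ± 19.9 CPM (lowest 14.4, median 40.5, highest 98.1). The ranges of the classes overlap widely, yet within an animal the D1-like level was the higher in 38 of 40, by 19.5 ± 14.0 CPM. Near the D1-like level stood a cluster of 2725 nuclei led by Dlk1, Arhgap36 and Pdyn, which had too few markers to be named, at 49.9 ± 30.4 CPM over 38 animals.

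Below the medium spiny neurons, Hcrtr2 came next in cholinergic-like nuclei, the acetylcholine interneurons, at 24.4 ± 16.5 CPM (25 animals). A cluster led by Vip, Crabp1 and Kit had 15.1 ± 10.1 CPM (39 animals). Somatostatin-like nuclei had 11.8 ± 15.2 CPM (31 animals), glutamate neuron-like nuclei 10.5 ± 4.74 CPM and a cluster led by Kcnc2, Grik1 and Pvalb 9.07 ± 7.08 CPM. These last means differ by less than the spread between animals. Eccentric medium spiny neuron-like nuclei, a type marked by Otof and Foxp2, had only 4.12 ± 2.56 CPM, and their highest animal, at 11.0 CPM, was below the lowest animal of the D1-like nuclei. The lowest pooled levels were in glia, with 2.24 CPM in microglia-like, 1.93 in oligodendrocyte precursor-like, 1.14 in mature oligodendrocyte-like and 0.536 CPM in astrocyte-like nuclei. A UMI was found in 10.5% of D1-like nuclei (2.70% after thinning) against 0.124% of microglia-like nuclei (0.0414% after thinning), which should lack the gene. At a finer resolution 7 of the 8 microglia-like UMIs lay in a cluster of 336 nuclei that also had 190 CPM of Drd1a, and the larger cluster of 4519 nuclei held 1.

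**Figure D1:**
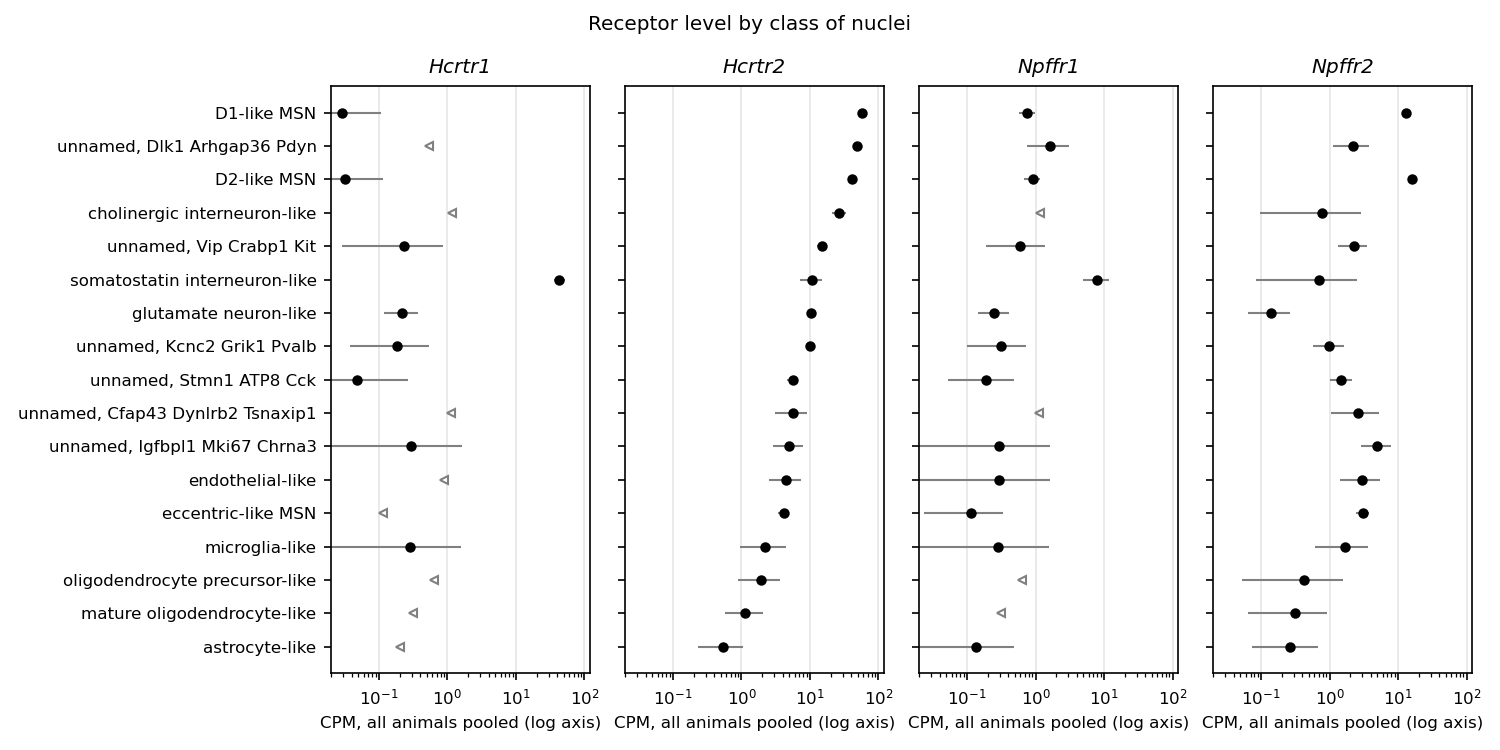
Pooled level of each receptor gene (CPM, log axis) by class of nuclei, with exact Poisson 95% intervals; open triangles mark classes without a UMI, drawn at the level 3 counts would give. Hcrtr1 stands at 43.1 CPM in somatostatin-like nuclei and at 0.218 CPM or lower in the other named classes except microglia-like nuclei (1 UMI, 0.280 CPM), while among named classes Hcrtr2 and Npffr2 are highest in D1-like and D2-like nuclei.

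Npffr1 was sparse, with no more than 2 UMIs in any nucleus. Its pooled level was highest in somatostatin-like nuclei, at 7.76 CPM (95% Poisson interval 4.87 to 11.8), from 22 UMIs. Next came the Dlk1 cluster at 1.64 CPM (9 UMIs), D2-like nuclei at 0.903 CPM (57 UMIs) and D1-like nuclei at 0.761 CPM (52 UMIs). The Poisson intervals of the last 3 overlap. Over animals, the somatostatin-like level was 6.99 ± 9.96 CPM, and 18 of 31 animals had no UMI there. Both sparse receptors thus had their highest pooled level in the same class, and 1 of the 22 nuclei with Npffr1 also had Hcrtr1, which is too few to compare.

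Npffr2 was the more abundant neuropeptide FF receptor gene and was largely restricted to medium spiny neurons. D2-like nuclei held 991 of its 2108 UMIs (47.0%) and D1-like nuclei 895 (42.5%). The level was 16.3 ± 12.3 CPM in D2-like nuclei (lowest 0.551, median 12.0, highest 40.7) and 13.9 ± 9.42 CPM in D1-like nuclei (lowest 0.553, median 11.4, highest 39.3). Unlike Hcrtr2, it had no constant order between these classes, being higher in D2-like nuclei in 23 animals and in D1-like nuclei in 17. This rests on which clusters are D1-like: with doublets kept, where a cluster rich in Drd1a and Col24a1 stayed unnamed, the D1-like level was 8.30 ± 6.05 CPM against 15.6 ± 11.6 in D2-like nuclei. Eccentric medium spiny neuron-like nuclei had 3.08 ± 3.27 CPM.

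In glutamate neuron-like nuclei, the deepest large class with a median of 2438 UMIs per nucleus, Npffr2 stood at 0.140 CPM (9 UMIs), which separates it from Hcrtr2. Somatostatin-like nuclei gave 2 UMIs (0.706 CPM), cholinergic-like 2 (0.784 CPM) and astrocyte-like 4 (0.268 CPM). An unnamed cluster led by Igfbpl1, Mki67 and Chrna3 gave 17 (4.93 CPM pooled, 3.55 ± 6.95 over 40 animals). At a finer resolution 3212 immature neuron-like nuclei gave 19 (7.36 CPM pooled). A UMI was present in 2.84% of D2-like and 2.49% of D1-like nuclei against 0.124% of microglia-like nuclei. After thinning the shares were 0.882%, 0.644% and 0.0207%. Sums over a whole library mix these classes: there Npffr2 ranged from 1.09 to 18.3 CPM between animals and Hcrtr2 from 11.4 to 54.3, and in such sums fewer nuclei of a class and less RNA per nucleus cannot be told apart.

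Nuclei with at least 1 UMI of Drd1a and at least 1 of Col24a1 numbered 9055, of which 85.4% were D1-like, and they were compared with the 34504 nuclei with Drd1a and no Col24a1 UMI. Hcrtr2 stood at 77.4 ± 28.9 CPM with Col24a1 and at 27.1 ± 11.3 without, and was higher with it in 40 of 40 animals. Npffr2 stood at 21.5 ± 17.4 CPM against 5.46 ± 5.07, higher in 38 of 40. Pooled over animals the folds were 2.66 for Hcrtr2 and 3.35 for Npffr2. Depth differed little between these nuclei, with medians of 2284 and 2023 UMIs. With every nucleus thinned to 500 UMIs the folds were 2.68 and 3.08.

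These folds were high among all genes. Of 10797 genes with at least 500 UMIs in Drd1a nuclei, Col24a1 left out, 16 (0.148%) were at least 2 times higher in nuclei with Col24a1, and both receptor genes were among them. The median gene had a fold of 1.00. Npffr2 had the highest fold of all these genes and Hcrtr2 had rank 3, after Rtp2 at 2.98; Rtp2 is named here because of this rank. No test was made, since the genes were picked for this specificity.

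The comparison above mixes classes, because 9501 eccentric medium spiny neuron-like nuclei had a Drd1a UMI and only 134 of them also had Col24a1. In these 9501 nuclei Hcrtr2 was 2.42 ± 2.09 CPM. Within D1-like nuclei the pooled folds were smaller, but both genes were again higher with Col24a1 in most animals. Over the 39 animals with enough nuclei, Hcrtr2 was 86.0 ± 30.8 CPM with Col24a1 and 48.4 ± 22.2 without (38 of 39 animals), and Npffr2 26.7 ± 22.5 against 8.23 ± 7.94 (36 of 39). Pooled over all animals the folds were 1.74 and 2.28, where 4 of 9849 genes (0.0406%) reached 2. Among the 9849 genes Npffr2 had rank 3 and Hcrtr2 rank 13. All pooled folds with and without Col24a1 take nuclei from animals that differ widely in Col24a1. Such folds and their ranks mix differences between animals with the split.

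The association with Col24a1 was not particular to D1 nuclei. Within D2-like nuclei Hcrtr2 was 75.2 ± 40.8 CPM with Col24a1 and 32.2 ± 19.1 without (39 of 39 animals), and Npffr2 34.1 ± 23.7 against 9.32 ± 9.92 (37 of 39). The pooled folds were 2.06 and 3.23, against 14 of 9693 genes (0.144%) at 2 or more, and Npffr2 again had the highest fold. Compared with Col24a1 nuclei that had no Drd1a UMI (11073), the Drd1a nuclei with Col24a1 were higher in Hcrtr2 in 32 of 40 animals (77.4 against 59.1 ± 25.1 CPM). Npffr2 went the other way, being lower in 30 of 40 animals (21.5 against 26.4 ± 16.9 CPM). In nuclei with neither gene the levels were 14.8 ± 6.07 CPM for Hcrtr2 and 3.21 ± 3.06 for Npffr2.

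The nuclei outside these classes were mixed. In all nuclei that were neither D1-like nor D2-like, Hcrtr2 was 21.5 ± 16.3 CPM with Col24a1 and 8.11 ± 2.46 without (30 of 37 animals), and Npffr2 4.25 ± 4.98 against 1.07 ± 0.820 (21 of 37). They include the Dlk1 cluster, which held 564 nuclei with Col24a1 and a high Hcrtr2 level, so this split mixes classes too. With mitochondrial UMIs held to 1%, no cluster led by Dlk1 stayed in this pool, and a D1-like cluster was led by Dlk1 and Pdyn. There Hcrtr2 was higher in 20 of 35 animals, and Npffr2 in 16, lower in 16 and equal in 3. With doublets kept, where the unnamed cluster rich in Drd1a and Col24a1 falls in this pool, they were higher in 40 and 39 of 40. Among nuclei without a Col24a1 UMI, Hcrtr2 was still higher in D1-like than in D2-like nuclei (48.7 ± 22.0 against 32.1 ± 18.9 CPM, 39 of 40 animals), whereas Npffr2 was higher in D1-like nuclei in 20 of 40 (9.03 ± 9.34 against 9.86 ± 10.4 CPM). A missing Col24a1 UMI does not mark absence of the gene, so the nuclei without it also hold nuclei that express it. Of the sparse genes, pooled over animals, Npffr1 had 20 UMIs (0.854 CPM) in Drd1a nuclei with Col24a1. It had 47 (0.585 CPM) in those without, too few to read a direction. Hcrtr1 had 2 UMIs (0.0854 CPM) against 44 (0.547 CPM), and was lower with Col24a1 in 24 of 40 animals and higher in 1. D1-like nuclei hold only 2 of the Hcrtr1 UMIs, so nearly all of these lay in other classes.

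**Figure D2:**
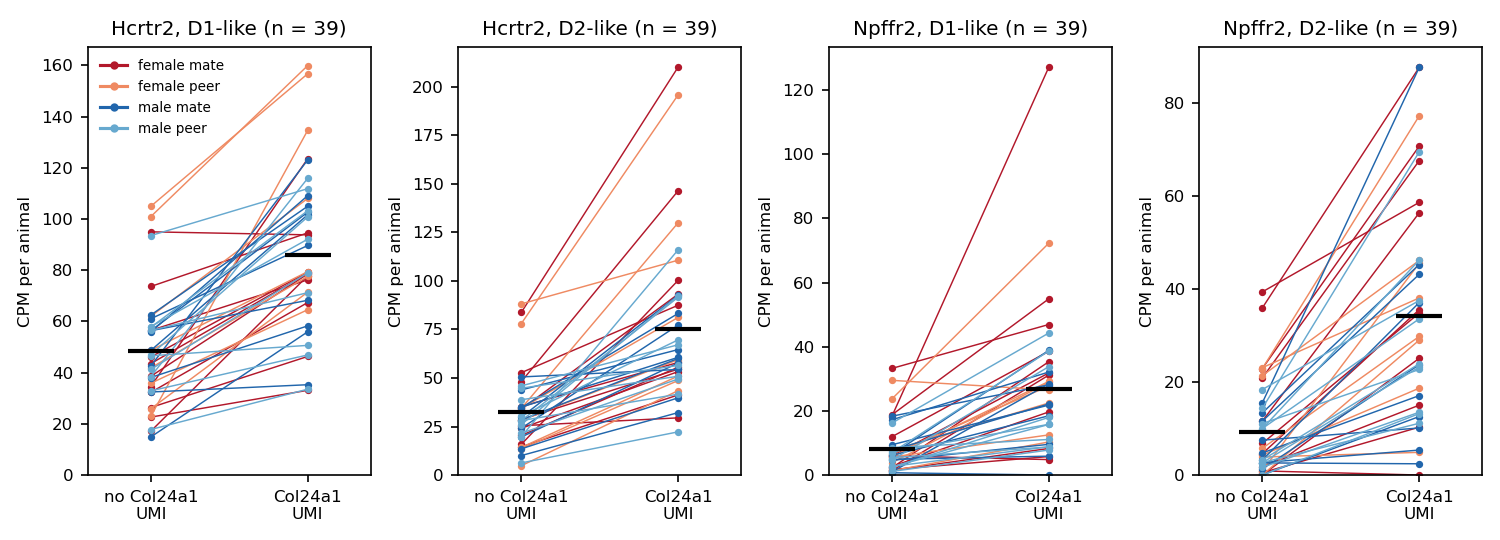
Level of Hcrtr2 and of Npffr2 (CPM) in D1-like and in D2-like nuclei without and with a Col24a1 UMI, each line joining the values of 1 of 39 animals, coloured by group, with black bars at the means. The level is higher with Col24a1 in 38 of 39 animals for Hcrtr2 in D1-like and 39 of 39 in D2-like nuclei, and in 36 and 37 of 39 for Npffr2.

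The split by cluster, which does not require a UMI of Col24a1 in each nucleus, gave the same order. Col24a1 was not held out of the clustering, and the clusters were ranked by it, so this split is not independent of Col24a1. The D1-like cluster highest in Col24a1 (284 CPM pooled, 24563 nuclei) had 68.4 ± 28.5 CPM of Hcrtr2 against 44.7 ± 19.1 in the other D1-like cluster (37 of 40 animals), and 16.9 ± 11.8 against 7.36 ± 6.68 CPM of Npffr2 (35 of 40). In the D2-like clusters the values were 45.2 ± 21.6 against 27.8 ± 16.8 CPM for Hcrtr2 (31 of 39) and 19.1 ± 14.2 against 2.84 ± 5.02 for Npffr2 (38 of 39). With doublets kept the D1-like clusters split otherwise and the Hcrtr2 difference turned to -2.75 CPM; there a further cluster rich in Drd1a and Col24a1 met no naming rule and was left out. The D2-like Hcrtr2 difference grew, from a pooled fold of 1.65 to 3.67 with doublets kept and 3.28 with mitochondrial UMIs held to 1%, where the D1-like Npffr2 fold was 5.56 in place of 2.33. The D2-like Npffr2 fold of 6.30 was 2.86 at the finer resolution described next.

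At a finer resolution 8 clusters of D1-like or D2-like nuclei were found. Here a cluster led by Dlk1, Pdyn and Ush1c, with Arhgap36, had enough markers to count as D1-like (that with 211 CPM of Col24a1 below). Along the 4 D2-like clusters, pooled Col24a1 was 93.8, 169, 263 and 368 CPM and Hcrtr2 20.4, 31.6, 54.7 and 68.9 CPM, in the same order. Npffr2 was 4.67, 2.70, 24.9 and 36.1 CPM, so it was low in the lower pair and high in the upper pair. Along the 4 D1-like clusters Col24a1 was 133, 192, 211 and 329 CPM, Hcrtr2 50.9, 49.0, 51.3 and 71.9 CPM and Npffr2 3.70, 12.3, 4.18 and 20.2 CPM. In D1-like nuclei both receptor genes were thus highest in the cluster richest in Col24a1, without an even gradient below it.

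**Figure D3:**
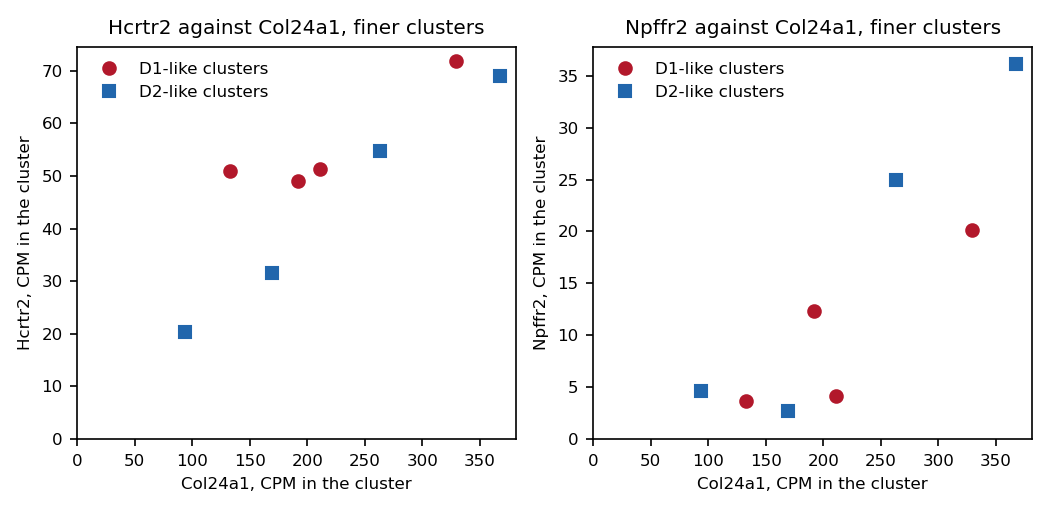
Pooled level of Hcrtr2 and of Npffr2 (CPM) against Col24a1 (CPM) in the 8 finer clusters of D1-like and D2-like nuclei, each point a cluster. The D2-like cluster with the highest Col24a1 (368 CPM) has 68.9 CPM of Hcrtr2 and 36.1 CPM of Npffr2.

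Hcrtr2 and Npffr2 were also found together in nuclei. Of the 791 D1-like nuclei with an Npffr2 UMI, 218 (27.6%) had an Hcrtr2 UMI, against 10.0% of D1-like nuclei without Npffr2. In D2-like nuclei the shares were 22.4% (194 of 867) and 6.88%. These shares pool animals and clusters that differ in both genes. Weighted by animal and finer cluster as the Npffr2 nuclei were, the shares without Npffr2 were 12.8% in D1-like and 10.5% in D2-like nuclei, still below 27.6% and 22.4%. Among animals with at least 10 Npffr2 nuclei the share was higher with Npffr2 in 29 of 30 and in 23 of 24. The nuclei with Npffr2 were also deeper, with medians of 2181 against 1984 UMIs in D1-like and 2007 against 1914 in D2-like nuclei, and the part of depth in the shares was not tested.

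Across 22 clusters of at least 200 nuclei, the 5 genes whose log2(CPM + 1) was most like that of Hcrtr2 were St8sia3, a sialyltransferase (Pearson r = 0.894), Tcaf1 (0.885), Lkaaear1 (0.882), Kcna4, a potassium channel (0.882) and Rab26, a small GTPase (0.874). For Npffr2 they were Ptprv (0.911), Ppp1r2, a protein phosphatase inhibitor (0.861), Tmprss9, a serine protease (0.850), Nexn, an actin-binding protein (0.850) and Oprk1 (0.846), the kappa opioid receptor gene. Col24a1 ranked 79 of 14005 genes for Npffr2 (r = 0.740) and 871 for Hcrtr2 (r = 0.685). These values describe clusters that share libraries. Hcrtr1 and Npffr1 had too few UMIs to be ranked.

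The animals differed strongly in both abundant receptor genes, and they did so alike in D1-like and D2-like nuclei. Npffr2 was highest in D1-like nuclei in male mate 6 (39.3 CPM), which had 33.0 CPM in D2-like nuclei, and female mate 11 (34.3 and 39.5 CPM) and female peer 6 (29.4 and 29.2 CPM) were high in both as well. Female mate 5 was low in both, at 2.13 and 0.551 CPM. Over the 40 animals Pearson's r between the classes was 0.854 and Spearman's rho 0.866. Without the 2 animals farthest from the median in D2-like nuclei r was 0.830, and within the 4 groups it was 0.802 to 0.960.

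Hcrtr2 showed the same. Female peer 4 stood highest in both classes, at 134.8 CPM in D1-like and 98.1 CPM in D2-like nuclei, and female mate 5 was lowest in D1-like nuclei, at 18.8 CPM, with 17.6 CPM in D2-like nuclei. Male mate 8 departed from this, with 85.1 CPM in D1-like and 23.2 CPM in D2-like nuclei. Over all 40 animals r was 0.821 and rho 0.743. Without the 2 animals farthest from the median in D2-like nuclei r was 0.757, and within groups it was 0.569 to 0.934. Both classes of an animal come from 1 library. The median depth of the library had an r of -0.01 to 0.11 with the 4 levels over all animals (adjusted permutation p of 0.893 or more over 26 relations). Within groups this r varied in sign, from -0.58 to 0.72 for Hcrtr2 and from -0.25 to 0.52 for Npffr2, and within blocks of 10 label numbers it was as low as -0.75 (Hcrtr2 in D1-like nuclei). Without the shallow library, male mate 2, the values between classes were 0.856 for Npffr2 and 0.821 for Hcrtr2.

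Many genes shared this behaviour, so it is not particular to the receptors. Across 9623 genes with at least 500 UMIs in each class the median r between D1-like and D2-like nuclei was 0.588, and 9.63% of genes had an r at least as high as that of Npffr2, 14.1% one at least as high as that of Hcrtr2. Genes with few UMIs have noisier levels. Among the 2748 genes with 500 to 2000 UMIs, which hold Npffr2, the median r was 0.428 and 2.15% reached the value of Npffr2.

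Npffr2 and Hcrtr2 were also correlated with each other over animals. Their r was 0.603 in D1-like nuclei (rho 0.664) and 0.577 in D2-like nuclei (rho 0.603). Without the 2 animals farthest from the median in Hcrtr2 of the same class it was 0.526 and 0.498. Within groups it was 0.324 to 0.948 and 0.162 to 0.759, so it held its sign in all 4 groups with wide variation. Libraries were also split by the numbers in their labels into blocks of 10, whose meaning the labels do not give, and within these blocks r was 0.507 to 0.637 and 0.555 to 0.712.

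Between animals the relation to Col24a1 was weak for Hcrtr2 and near 0 for Npffr2. Col24a1 itself ranged from 14.9 to 508 CPM in D1-like nuclei and from 14.3 to 487 CPM in D2-like nuclei. Npffr2 against Col24a1 had an r of -0.11 in D1-like nuclei (rho 0.01) and of 0.02 in D2-like nuclei (rho 0.12). Hcrtr2 against Col24a1 had 0.29 (rho 0.34) and 0.10 (rho 0.22), and was positive in each of the 4 groups, at 0.09 to 0.55 in D1-like and 0.04 to 0.37 in D2-like nuclei. Within blocks of 10 label numbers its sign was not constant, at -0.09 to 0.67 and -0.45 to 0.46. For Npffr2 the groups gave -0.24 to 0.10 and -0.26 to 0.46, and the blocks -0.35 to 0.23 and -0.39 to 0.08. Without the 2 animals farthest in Col24a1 these 4 values of r were -0.04, -0.01, 0.39 and 0.08. Male mate 6, with the highest Npffr2 in D1-like nuclei, had only 16.9 CPM of Col24a1 there, and male peer 5, with the most Col24a1 at 508 CPM, had 5.45 CPM of Npffr2 and 28.0 CPM of Hcrtr2.

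**Figure D4:**
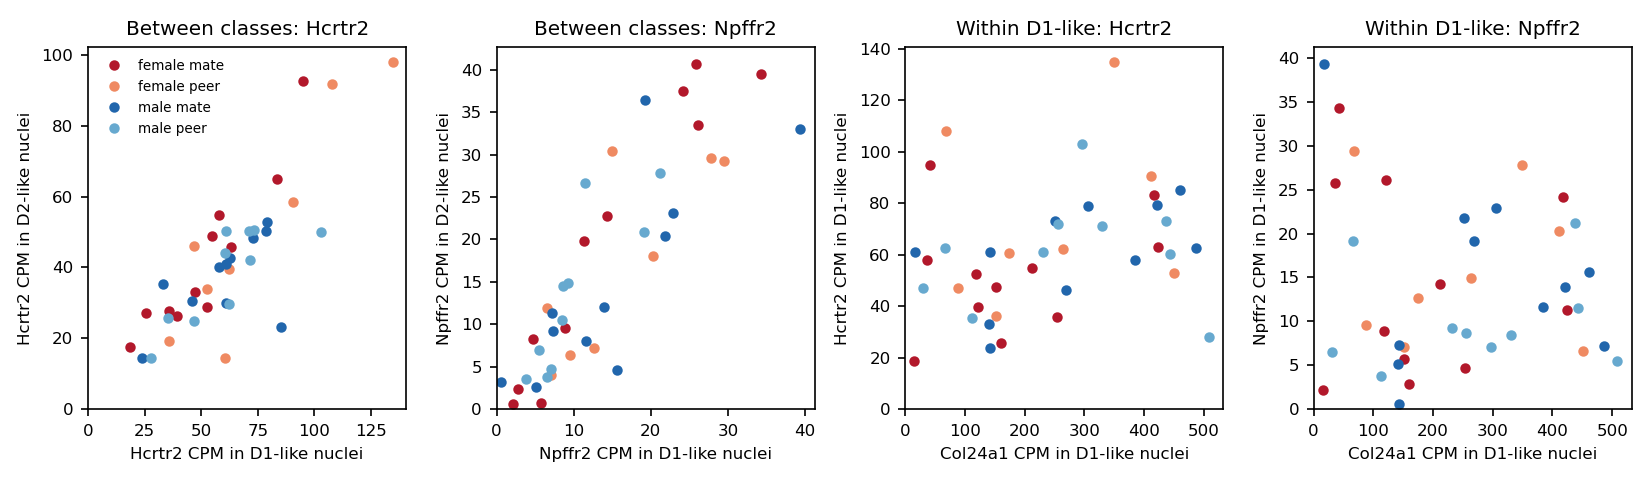
Levels per animal (CPM) of Npffr2 and Hcrtr2 in D1-like against D2-like nuclei and against Col24a1 in D1-like nuclei, each point 1 of 40 animals, coloured by group. The D1-like and D2-like levels move together (r = 0.854 and 0.821), while Npffr2 against Col24a1 has an r of -0.11.

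Levels over all nuclei were only weakly related to the makeup of the library. Hcrtr2 against the share of nuclei with Drd1a and Col24a1, which ranged from 0.594% to 13.8%, had an r of 0.282 and a rho of 0.349 (permutation p = 0.0765 and 0.0287, adjusted 0.284 and 0.136 over the 26 relations computed). Npffr2 against the same share had an r of 0.062 and a rho of 0.157 (permutation p = 0.703 and 0.332). Hcrtr1 against the share of somatostatin-like nuclei had an r of 0.331 and a rho of 0.328 (permutation p = 0.036 and 0.0396, adjusted 0.187 and 0.147). This last relation was not planned, and 82.4% of the Hcrtr1 UMIs lay in that class, so a positive r is partly built in. Of the 14 relations between a level over all nuclei and the makeup of the library, none passed an adjusted p of 0.05.

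Mate and peer animals, and females and males, were compared on UMIs summed per animal with edgeR's quasi-likelihood test, with Benjamini-Hochberg adjustment over all genes tested. Hcrtr2 and Npffr2 passed the filter on low counts and Hcrtr1 and Npffr1 did not. Over all nuclei Hcrtr2 stood at 26.1 ± 11.1 CPM in females with a mate (n = 11) and 27.6 ± 14.1 in those with a peer (n = 8), 24.2 ± 7.09 in males with a mate (n = 11) and 24.1 ± 4.36 in those with a peer (n = 10). Npffr2 stood at 7.88 ± 5.97, 6.99 ± 4.07, 6.44 ± 4.40 and 5.02 ± 2.75 CPM in the same order. The ranges of the groups overlapped for both genes. The mate minus peer log2 fold change was -0.03 (SE 0.16, adjusted p = 0.971) for Hcrtr2 and 0.27 (SE 0.31, adjusted p = 0.822) for Npffr2.

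Neither was called for pairing over all nuclei, where edgeR called 0% of 13717 genes, 965 genes had an unadjusted p under 0.05 and DESeq2 called 0. For sex (female minus male) the log2 fold changes were 0.15 (SE 0.16, adjusted p = 0.791) and 0.40 (SE 0.31, adjusted p = 0.730), against 0.0219% of genes called (3, and 5 by DESeq2). The interaction, the female pairing difference minus the male one, was -0.06 (SE 0.31) and -0.19 (SE 0.62), with adjusted p of 1.00 for both and 0% of genes called (267 at an unadjusted p under 0.05, 0 by DESeq2). Neither receptor gene had an unadjusted p under 0.05 in any of these contrasts. Without the filter on low counts, the mate minus peer log2 fold change was -0.31 (SE 0.31, adjusted p = 0.827) for Hcrtr1 and -0.09 (SE 0.25) for Npffr1.

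Within D1-like nuclei Hcrtr2 was 52.1 ± 22.9 CPM in females with a mate (18.8 to 94.9) and 74.0 ± 33.9 in those with a peer (35.9 to 134.8), 60.2 ± 19.4 in males with a mate (23.8 to 85.1) and 61.3 ± 21.2 CPM in those with a peer (28.0 to 102.8). All 4 ranges overlap. The mate minus peer log2 fold change was -0.26 (SE 0.17, adjusted p = 0.921) in D1-like, -0.14 (SE 0.19, adjusted p = 0.967) in D2-like and 0.14 (SE 0.19, adjusted p = 0.964) in glutamate neuron-like nuclei. For Npffr2 it was 0.24 (SE 0.30, adjusted p = 0.963) in D1-like and 0.19 (SE 0.36, adjusted p = 0.980) in D2-like nuclei. Of these 5 pairs of gene and class none was called, as was none of 65762 pairs of gene and class (0%) by edgeR or by DESeq2, while 3462 pairs had an unadjusted p under 0.05. With doublets kept, where the D1-like class lacks the unnamed cluster of 14669 nuclei rich in Drd1a and Col24a1 and holds the Dlk1 cluster, the D1-like values were -0.35 for Hcrtr2 (unadjusted p = 0.0435, adjusted p = 0.867 by edgeR) and 0.01 for Npffr2.

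Relative to its mean, Npffr2 in D2-like nuclei spread most of these 4 levels, with female mate animals at 0.551 to 40.7 CPM (19.6 ± 16.2) and male peer animals at 3.50 to 27.8 CPM (13.4 ± 9.17). Female minus male log2 fold changes of the 5 pairs lay between 0.05 and 0.44, none of them called, with 0.0243% of all pairs called. The lowest p was that of Hcrtr2 in D2-like nuclei, at 0.34 (SE 0.19, adjusted p = 0.964). Interactions lay between -0.80 and 0.44 with SEs of 0.35 to 0.72 and none was called, with 0% of all pairs called (1838 at an unadjusted p under 0.05, 0 by DESeq2).

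**Figure D5:**
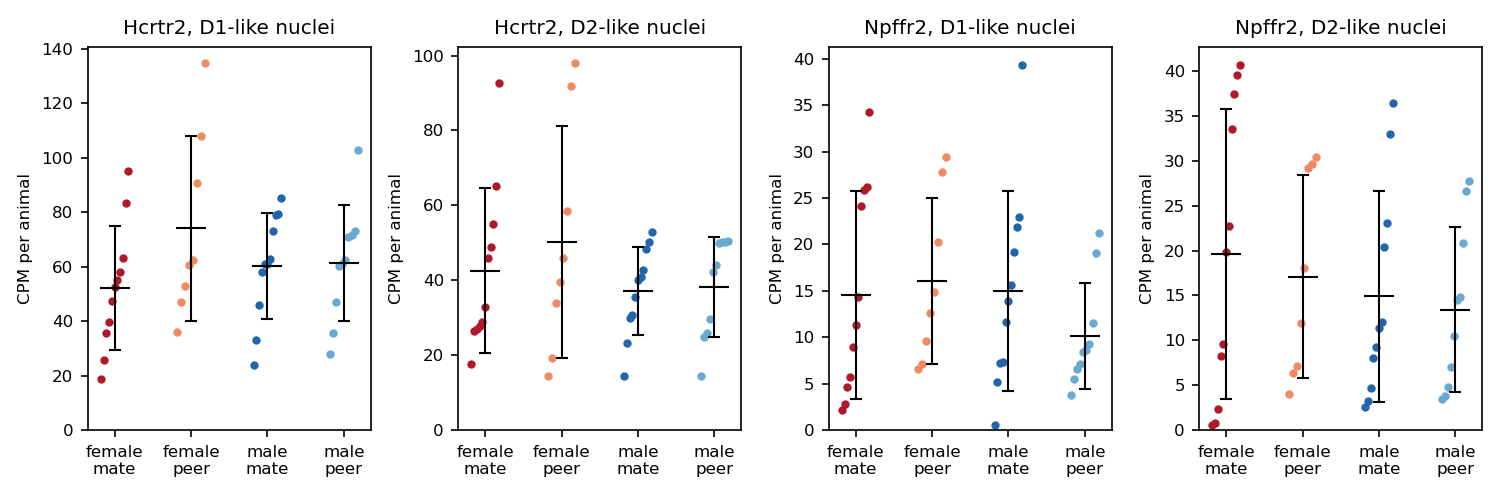
Levels per animal (CPM) of Hcrtr2 and Npffr2 in D1-like and D2-like nuclei by group, each point 1 animal, with the group mean and SD. The groups overlap in all 4 panels; Hcrtr2 in D1-like nuclei runs from 18.8 to 94.9 CPM in female mate and from 35.9 to 134.8 CPM in female peer animals.

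In nuclei with Drd1a and Col24a1 the pairing difference was -0.12 (SE 0.16, adjusted p = 0.993) for Hcrtr2 and 0.15 (SE 0.29, adjusted p = 0.999) for Npffr2, with 0% of 9152 genes called by edgeR, 0 by DESeq2 and 419 at an unadjusted p under 0.05. The sex difference was 0.16 (SE 0.16) and 0.48 (SE 0.29), adjusted p = 1.00 for both by edgeR, where 0.0219% of genes were called. Interactions were -0.43 (SE 0.31) and 0.13 (SE 0.58), also uncalled, with 0% of genes called (260 at an unadjusted p under 0.05, 0 by DESeq2). In the D1-like cluster highest in Col24a1, used in their place, the pairing difference was -0.30 (SE 0.17, adjusted p = 0.925 by edgeR) for Hcrtr2 and 0.35 (SE 0.31, adjusted p = 0.937) for Npffr2. Neither was called for pairing, sex or interaction there, where edgeR called 0%, 0.0298% and 0% of 10076 genes.

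Hcrtr1 in somatostatin-like nuclei was compared by permutation over animals. This class did not reach the minimum of 6 animals in each group that was set for edgeR. Mate animals stood at 33.6 ± 22.3 CPM (n = 17) and peer animals at 51.1 ± 41.9 CPM (n = 14), a difference of -17.5 CPM with a 2-sided permutation p of 0.152 (adjusted 0.608 over 4 tests). Npffr1 there was 7.82 and 5.97 CPM, with a permutation p of 0.627. Females and males differed with permutation p of 0.632 for Hcrtr1 and 0.430 for Npffr1. Among the peer animals, female peer 6 stood at 128.5 CPM of Hcrtr1, the next female peer animal at 40.8. Its weight in the mate minus peer difference was not tested.

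Of the other genes of these pathways, the ligand genes were scarce. Hcrt, which encodes the orexin precursor, gave 183 UMIs, Npff 36, of which 14 were in D1-like nuclei, and Npvf 2. Prlhr, the receptor gene of prolactin-releasing peptide, a further RF-amide peptide, stood at 20.8 CPM in somatostatin-like nuclei against 0.556 in D1-like and 0.444 in D2-like nuclei. Kiss1r, the kisspeptin receptor gene, stood at 1.71 CPM in D1-like and 1.92 CPM in D2-like nuclei.

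A list of 39 genes held these ligands, related RF-amide genes, the Gq arm (Gna11, phospholipases C, protein kinases C, cation channels), the Gi/o arm (G protein subunits, Adcy5, inward rectifier channels) and genes of receptor desensitization. In the matrices 32 were listed and 25 were tested over all nuclei. None was called by edgeR for pairing, sex or interaction, and the median mate minus peer log2 fold change was 0.01 against -0.01 over all genes. At an unadjusted p under 0.05 the counts were 0, 1 and 2 of 25, against 7.04%, 7.89% and 1.95% of all genes tested. The lowest p for pairing was that of Prkcb, a protein kinase C gene, with a log2 fold change of 0.16 (SE 0.09, adjusted p = 0.701).

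In nuclei with Drd1a and Col24a1, 18 of the list were tested and none was called. There 2 had an unadjusted p under 0.05 for pairing, 0 for sex and 1 for the interaction, against 4.58%, 3.87% and 2.84% of all genes tested. Gnai1, an inhibitory G protein subunit, had the lowest p for pairing, with a log2 fold change of -0.24 (SE 0.10, adjusted p = 0.967). Within classes 127 pairs of gene and class were tested and none was called for pairing, sex or interaction, with 8, 3 and 1 at an unadjusted p under 0.05, against 5.26%, 5.08% and 2.79% of all pairs. The median mate minus peer log2 fold change was 0.06 against 0.00 over all pairs.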

How the data were processed

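The deposited values are UMI counts per gene and barcode, written by Cell Ranger 3.1.0 per the submitters' processing notes; the build and annotation are not given in the sources used here. A minimum of 500 UMIs and a maximum of 5% mitochondrial UMIs kept 185995 of 194518 barcodes. All 6375 barcodes under 500 UMIs were among the 12519 of male mate 2, whose lowest barcode had 206 UMIs. In every other library the lowest deposited barcode had 500 or 501. Doublets were scored by simulation in each library (7608 removed at an assumed rate of 0.8% per 1000 barcodes, 4.09%), which left 178387 nuclei and 2919415 to 13080423 UMIs per library. Counts were scaled to 10000, and 2000 scaled variable genes and 30 components were clustered by Leiden (resolution 1, scanpy 1.11.5) into 26 clusters. An unscaled clustering had been tried and gave 16; scaling was chosen after seeing it. Clusters were named from marker lists and need 3 markers.

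Groups came from the labels (sex, pairing type). UMIs were summed per animal and class (at least 20 nuclei), and tested with edgeR 4.0.16 in R 4.3.3 (TMM, filterByExpr, glmQLFit, glmQLFTest, 1 mean per group), classes needing at least 6 animals per group. The SE is the fold change divided by the root of F. The test was tried on simulated counts. DESeq2 1.42.0, no filter, other clusterings, label blocks and leaving out male mate 2 were alternatives. Permutations used SciPy 1.17.1. Named genes are the 4 receptors, the 5 genes most like each member of at least 500 UMIs, and the pathway list. The members and lists were chosen with earlier results of these data known. A rule for Col24a1-rich D1-like clusters (log2 fold of at least 1) found none, at 0.97, so nuclei with a UMI of both genes were used.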

Additional observations from a re-analysis of the deposited data

Results flagged for a closer look

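In 24 groups of animals examined for a value far from the rest, 3 were found, where chance gives about 1 in 20. The rule took no group as large as the full female mate and male mate groups, so these flags do not compare mate with peer animals. Female peer 1 had 1.06 CPM of Npffr1 over all nuclei, from 4 UMIs, the next of 8 female peer animals 0.578, from 5. Female peer 6 had 60.2 CPM of Npffr2 in nuclei with Drd1a and Col24a1, from 14 UMIs, the next of 8 having 27.4. The same animal had 128.5 CPM of Hcrtr1 in somatostatin-like nuclei, from 8 UMIs, the next of 5 having 40.8.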

How the results depend on the processing

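No paired analysis was made because the labels give no replicate number shared between groups and do not name partners. Taken in order by 2, the label numbers always give a female and a male mate or 2 peers of the same sex. Whether these animals lived together is not stated, and no block on them was fitted. The class levels moved by less than the spread between animals in all 36 alternatives. Of 40 alternative values of the Col24a1 differences, 39 kept their direction. The finer resolution could not change the split of Drd1a nuclei, which uses no clusters. The split by D2-like cluster and that of nuclei outside both classes were not among the 40. With doublets kept, Hcrtr2 in the D1-like cluster highest in Col24a1 was below the others by a difference of -2.75 CPM. DESeq2 called 5 genes for sex over all nuclei in place of 3, and with doublets kept 1 interaction was called within classes in place of 0; none was a receptor gene. Signs turned for Npffr2, never called: the interaction was -0.89 in that D1-like cluster, an alternative chosen after seeing the data, and with label blocks pairing was -0.083 in nuclei with Drd1a and Col24a1 and -0.015 in D2-like nuclei. Signs also turned for values of r near 0. On the log2(CPM + 1) scale r was 0.019 for Hcrtr2 and 0.0056 for Npffr2 against the glutamate neuron-like share, -0.026 for Npffr2 against the D1-like share and -0.0094 for Npffr2 in D1-like nuclei against depth. Without male mate 2, r against the glutamate neuron-like share was 0.062 for Hcrtr1 and 0.056 for Npffr2. The cause was not tested. Depth limits Hcrtr1 and Npffr1 most, with 148 and 178 UMIs in all.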

Other observations

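Transcripts of the orexin precursor gene Hcrt, a gene of hypothalamic neurons, were found in a cluster of 3111 nuclei led by Cfap43, Dynlrb2 and Tsnaxip1, genes of motile cilia, which met no naming rule. It held 130 of the 183 Hcrt UMIs, in 53 nuclei from 24 animals. All 11 nuclei with 4 or more Hcrt UMIs (77 UMIs together, up to 15 in 1 nucleus) lay in it, while no nucleus outside it had more than 1. At a finer resolution the cilia genes led only 193 nuclei, which had enough markers to be called ependymal-like. These 193 held 127 of the Hcrt UMIs and all 11 of those nuclei, while 2946 nuclei were led by Fzd5, Celsr1, Gfap and Sfrp2. The median depth of the 53 Hcrt nuclei was 1954 UMIs, against 639 in the whole cluster of 3111 and 1206 in the 193 ependymal-like nuclei. Female peer 8 had the most, with 33 UMIs over all its nuclei. The receptor gene Hcrtr1 had no UMI in the 3111 nuclei and Hcrtr2 had 15 (5.57 CPM), and at the finer resolution the 193 nuclei led by cilia genes held 1 and the 2946 led by Fzd5 held 13.

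Within glutamate neuron-like nuclei, which are not striatal, Hcrtr2 differed between clusters. Pooled over animals it was 20.8 CPM in the cluster led by Rxfp2 and Hs3st4. It was 11.1 CPM in that led by Col5a2 (26 UMIs) and 5.83 CPM in that led by SLC30A3. The Col5a2 cluster also had 114 CPM of Drd1a and 23.5 CPM of Drd2, against 43.8 and 6.13 CPM in the SLC30A3 cluster. At the finer resolution the cluster led by Col5a2 had 7.81 CPM of Hcrtr2 (16 UMIs). The part of RNA from medium spiny neurons in these values was not tested.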
